A study of Mus musculus with 12 samples.

Results

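Insulin-like growth factor 1 (Igf1), its receptors and the IGF-binding proteins were followed in the paw joints of 12 mice. The 9 members are the genes of the count table whose mouse symbol is Igf1, Igf1r, Igf2r, Igfbp2, Igfbp3, Igfbp4, Igfbp5, Igfbp6 or Igfbp7, out of 52636 gene identifiers listed, and all 9 were among the 16674 genes with enough counts to be tested. Each library was made from the total RNA of 1 animal, with 4 animals in each of 3 groups. Mice of the anti-SIRPa group received K/BxN serum, which carries joint-inflaming antibodies, and 6F2, an agonistic antibody to SIRPa, an inhibitory receptor of myeloid cells. Control arthritis mice received the same serum with anti-gp120, a control antibody. Naive mice received anti-gp120 and no arthritogenic serum. The joints of both serum groups were taken at day 7. The labels give no strain, age or sex. Serum transfer starts the disease from ready-made antibodies, and whole paw tissue mixes synovium, bone, cartilage, muscle, tendon and skin.

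IGF1 is a growth factor made by the liver and, within tissues, by mesenchymal cells and macrophages. It acts through the tyrosine kinase receptor encoded by Igf1r, while the mannose 6-phosphate receptor encoded by Igf2r takes up IGF2 and lysosomal enzymes. IGF-binding proteins hold the growth factors in blood and tissue and are cut by proteases of the pappalysin, ADAM and HtrA families, which sets IGF free. In joints, IGF1 is known as a factor that keeps cartilage matrix synthesis going.

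Promoters are shown for the 4 binding protein genes that were most abundant per length, since in arthritic joints the group means of Igfbp4, Igfbp5 and Igfbp7 were higher and that of Igfbp6 was lower than in naive joints. Each line gives the 250 bases before the RefSeq start (GRCm38.p6), 5′ to 3′ on the gene's strand, with capitals marking matches on either strand to the TATA box TATAAA, the CAAT box CCAAT or the GC box GGGCGG. The windows are chr11:99040994-99041243 (+) for Igfbp4, chr1:72874866-72875115 (-) for Igfbp5, chr5:77408046-77408295 (-) for Igfbp7 and chr15:102143936-102144185 (+) for Igfbp6, whose RefSeq start lies upstream of the start in the gene annotation.
Igfbp4: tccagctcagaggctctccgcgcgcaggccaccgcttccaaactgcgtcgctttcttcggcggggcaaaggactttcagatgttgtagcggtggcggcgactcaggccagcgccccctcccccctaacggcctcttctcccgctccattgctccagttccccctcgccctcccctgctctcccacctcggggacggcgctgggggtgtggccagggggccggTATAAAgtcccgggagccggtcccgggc
Igfbp5: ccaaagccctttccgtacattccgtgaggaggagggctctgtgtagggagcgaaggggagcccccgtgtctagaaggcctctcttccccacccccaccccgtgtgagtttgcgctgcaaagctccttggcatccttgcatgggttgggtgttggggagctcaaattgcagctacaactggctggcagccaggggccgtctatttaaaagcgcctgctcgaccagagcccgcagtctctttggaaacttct
Igfbp7: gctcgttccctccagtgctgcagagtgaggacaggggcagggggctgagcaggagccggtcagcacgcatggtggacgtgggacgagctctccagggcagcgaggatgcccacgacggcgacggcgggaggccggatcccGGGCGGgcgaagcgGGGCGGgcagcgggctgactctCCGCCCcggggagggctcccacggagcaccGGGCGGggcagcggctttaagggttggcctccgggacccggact
Igfbp6: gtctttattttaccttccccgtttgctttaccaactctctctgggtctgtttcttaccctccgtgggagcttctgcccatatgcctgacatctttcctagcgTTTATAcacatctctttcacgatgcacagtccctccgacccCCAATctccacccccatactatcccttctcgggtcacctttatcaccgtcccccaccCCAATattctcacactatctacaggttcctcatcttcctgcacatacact

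The GC content of these windows was 69.2% (Igfbp4), 58.8% (Igfbp5), 74.0% (Igfbp7) and 49.6% (Igfbp6). Over 32851 RefSeq promoters of the same length the median was 52.4%, with quartiles of 45.2% and 61.2%. Igfbp5 and Igfbp6 both lay between these quartiles, and Igfbp4 and Igfbp7 lay above them. The Igfbp7 window held 4 matches to GGGCGG, which 32.74% of those promoters contain, and the other 3 windows held none. Igfbp4 had 1 TATAAA match at 28 to 23 bases before its start, and Igfbp6 had 1 on the opposite strand at 148 to 143 bases, where 12.37% of promoters contain one. Igfbp6 also carried 2 CCAAT matches, a motif found in 33.85% of promoters. No window held the AP-1 motif TGANTCA, which 6.749% of promoters contain, or the STAT motif TTCNNNGAA, which 7.02% contain. The E-box CAGCTG, found in 13.0% of promoters, and an NF-kB motif, found in 0.3562%, were also absent from these letters. None of the searched motifs overlapped in these windows.

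Libraries held 6893969 to 17597920 counts. Markers of the labelled tissue were present: summed cartilage markers ran from 498 to 1028 CPM (counts scaled to a common library size) and bone markers from 148 to 533 CPM over the 12 libraries, and skeletal muscle markers were far more abundant, with sums of 140350 to 376134 CPM. Control arthritis mouse 1 stood apart from its group on the second principal component of log2 CPM, which held 25.8% of the variance. It lay at 27.2, within the naive range of 19.1 to 43.2 and at the edge of the anti-SIRPa range of 3.2 to 27.6. The other control arthritis mice lay between -85.8 and -41.2. On the first component, which held 38.3% of the variance, mouse 1 lay at 30.9, within the 2.0 to 33.8 of the other control arthritis mice. There naive mouse 4 lay at -95.4, with the other naive mice at 20.9 to 54.3. Anti-SIRPa mouse 4 lay at 60.8, with the others of its group at -83.2 to -37.9. The value of control arthritis mouse 1 fell within the naive range for 5 of the 9 members. Control arthritis mice 2 and 4 carried 528 and 226 CPM of smell and taste receptor genes, where the other 10 libraries had 10.1 to 29.3 CPM. Since the control arthritis group enters both arthritis comparisons, these share their control samples. Each member is given below with and without mouse 1 where that changes its call. Mouse 1 was singled out from these same expression values. The adjusted p-values of fits without it are therefore descriptions and no independent support.

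Per length, the joint contained more binding protein transcript than ligand transcript. Averaged over the 12 mice, Igfbp5 reached 412 CPM per kilobase of exon (RPKM), Igfbp6 163, Igfbp7 141 and Igfbp4 78.7 RPKM. The receptor Igf2r followed at 21.4 RPKM, the ligand Igf1 at 11.3, Igfbp2 at 10.8, the receptor Igf1r at 6.76 and Igfbp3 at 4.74 RPKM. Igf1 and Igfbp2 stood next to each other with overlapping values, since Igfbp2 ran from 0.747 to 35.6 RPKM among mice and Igf1 from 6.56 to 19.2 RPKM. Igfbp6 and Igfbp7 exchanged places between groups: Igfbp6 averaged 181 ± 28.9 RPKM and Igfbp7 106 ± 15.0 RPKM in anti-SIRPa joints, 105 ± 21.9 and 205 ± 80.3 RPKM in control arthritis joints, and 201 ± 18.4 and 112 ± 16.9 RPKM in naive joints (SD, n = 4 each). In control arthritis mouse 1, Igfbp6 was still above Igfbp7, at 137 and 96.7 RPKM.

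**Figure D1:**
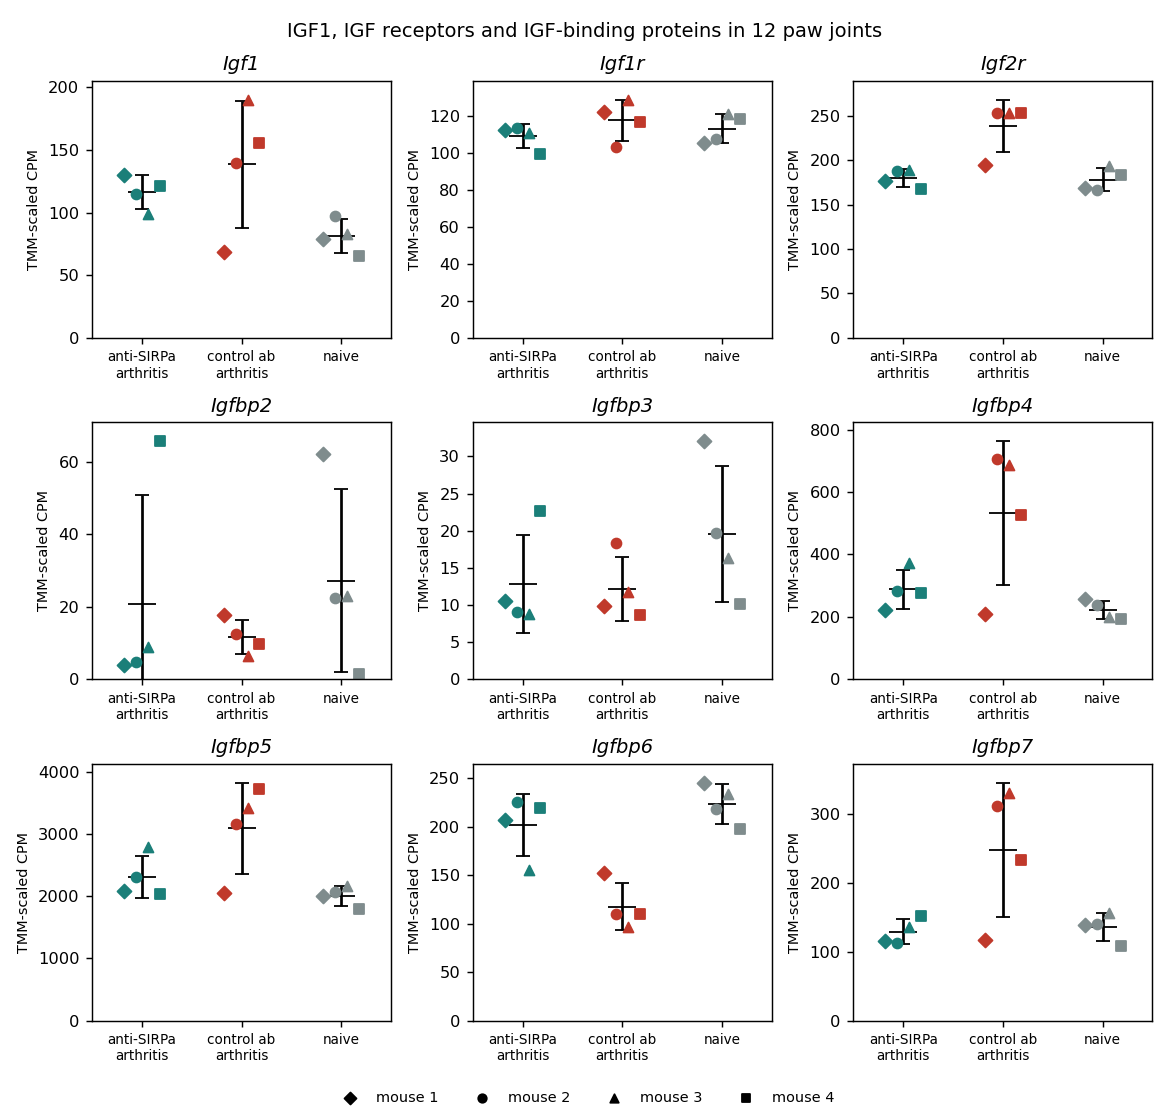
TMM-scaled CPM of the 9 members in each mouse, by group (anti-SIRPa arthritis, control antibody arthritis, naive). Points are mice, the horizontal line is the mean and the bars are ± 1 SD (n = 4). Control arthritis mouse 1 (red diamond) lies below the other 3 control arthritis mice for Igf1, Igf2r, Igfbp4, Igfbp5 and Igfbp7 and above them for Igfbp6.

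In arthritic joints with control antibody, 3 members rose and 1 fell relative to naive joints, out of 9, at an adjusted p under 0.05 (edgeR quasi-likelihood test, Benjamini-Hochberg over all 16674 genes). Over all tested genes 10.3% passed, 5.87% upward and 4.45% downward. Igfbp4, Igf2r and Igfbp7 were higher and Igfbp6 was lower. The median log2 fold change of the 9 members was 0.42, with 0.03 over all tested genes. With anti-SIRPa, 1 member of 9, Igfbp6, differed from control arthritis, where 3.29% of all genes passed, 1.59% upward and 1.7% downward. Against naive joints no member and no gene (0%) passed in anti-SIRPa joints, while 675 genes and 1 member, Igf1, had an unadjusted p under 0.05 and DESeq2 called 20 genes and no member. Without control arthritis mouse 1, a fit given as a description, 6 of 9 members passed in each of the comparisons with control arthritis. The background was then 27.2% of genes relative to naive (14.5% upward, 12.7% downward). For anti-SIRPa relative to control arthritis it was 23% (11.1% upward, 12% downward). Of the 6 members, 5 were higher and 1 was lower relative to naive, and 1 was higher and 5 were lower with anti-SIRPa relative to control arthritis.

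The ligand Igf1 measured 130.4, 115.2, 98.5 and 121.2 CPM in anti-SIRPa joints, 68.8, 139.8, 189.9 and 155.3 CPM in control arthritis joints, and 78.5, 97.6, 83.2 and 64.9 CPM in naive joints. All 4 anti-SIRPa mice and 3 of 4 control arthritis mice were above every naive mouse, and control arthritis mouse 1 was among the naive mice. Control arthritis exceeded naive by a log2 fold change of 0.77 ± 0.24 (SE), with adjusted p = 0.0581, short of the threshold. Without mouse 1 the difference was 0.99 ± 0.15 with adjusted p = 0.000272. Anti-SIRPa against naive gave 0.52 ± 0.24 with adjusted p = 0.9999 and an unadjusted p of 0.0489, and the groups did not overlap, which held for 4.89% of all genes (3.04% upward, 1.85% downward). Between anti-SIRPa and control arthritis, the difference was -0.25 ± 0.24 (95% interval -0.77 to 0.27, adjusted p = 0.552), and -0.47 ± 0.15 without mouse 1 (adjusted p = 0.0349). In bulk tissue, fewer cells of a type and less RNA per cell cannot be told apart, for this and every gene below.

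Igf1r, the signalling receptor for IGF1, varied little, with a coefficient of variation of 5.96% to 9.27% within groups. It had 112.7, 113.5, 111.1 and 99.6 CPM in anti-SIRPa joints, 122.6, 103.2, 128.9 and 116.8 CPM in control arthritis joints, and 105.8, 107.8, 121.6 and 118.4 CPM in naive joints. The 3 groups overlapped throughout. The 95% intervals of the log2 fold change were -0.33 to 0.11 for anti-SIRPa against control arthritis, -0.16 to 0.28 for control arthritis against naive and -0.27 to 0.17 for anti-SIRPa against naive. Its adjusted p was 0.541, 0.759 and 0.9999 in those comparisons.

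Igf2r, which carries IGF2 and mannose 6-phosphate-tagged enzymes to lysosomes, had 176.8, 187.5, 189.4 and 167.6 CPM in anti-SIRPa joints, 195.3, 253.6, 253.7 and 253.1 CPM in control arthritis joints, and 168.3, 166.4, 193.7 and 183.9 CPM in naive joints. Every control arthritis mouse lay above every mouse of the other groups, mouse 1 only just. Such non-overlap was found for 10% of all genes between anti-SIRPa and control arthritis (5.18% higher, 4.82% lower) and for 12.5% between control arthritis and naive (6.02% higher, 6.47% lower). Igf2r rose by 0.42 ± 0.12 in control arthritis relative to naive (adjusted p = 0.0364). With anti-SIRPa it stood at -0.41 ± 0.12 relative to control arthritis, with adjusted p = 0.0645, and at -0.48 ± 0.10 without mouse 1 (adjusted p = 0.00364). Relative to naive it stood at 0.02 ± 0.12 in anti-SIRPa joints. The call against naive was kept in 1 of 12 fits that each left out 1 library (log2 fold change 0.35 to 0.50, adjusted p up to 0.127), that without control arthritis mouse 1 (adjusted p = 0.00214). The antisense transcript Airn overlaps the gene but held 779 counts in all, where Igf2r held 32949.

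Igfbp4, which inhibits IGF action until PAPP-A cuts it, had the largest log2 fold change of the 9 members in control arthritis relative to naive. Its values were 222.8, 283.1, 372.4 and 275.7 CPM in anti-SIRPa joints, 209.4, 707.1, 686.0 and 528.1 CPM in control arthritis joints, and 256.2, 237.6, 199.8 and 193.8 CPM in naive joints. Control arthritis mice 2, 3 and 4 were above all other mice, and mouse 1 was within the naive range. Igfbp4 rose by 1.26 ± 0.30 on the log2 scale in control arthritis relative to naive (adjusted p = 0.0243), or 1.52 ± 0.17 without mouse 1 (adjusted p = 3.4e-05). The call was lost without any 1 of the 4 naive mice or of control arthritis mice 2, 3 and 4, with adjusted p up to 0.0782 and log2 fold changes from 1.10 upward. Anti-SIRPa against control arthritis gave -0.88 ± 0.30 (adjusted p = 0.103), and -1.14 ± 0.17 without mouse 1 (adjusted p = 0.000447). Relative to naive, anti-SIRPa joints stood at 0.38 ± 0.30.

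Igfbp7, a secreted binding protein of low IGF affinity that is common in vessels and fibroblasts, also had its highest values in part of the control arthritis group. It had 114.8, 113.3, 135.2 and 151.3 CPM in anti-SIRPa joints, 116.9, 311.7, 330.2 and 232.7 CPM in control arthritis joints, and 138.7, 139.8, 156.8 and 107.8 CPM in naive joints. Again mice 2, 3 and 4 of control arthritis were above all others and mouse 1 was within the naive range. The rise in control arthritis relative to naive was 0.87 ± 0.26 (adjusted p = 0.0485), and 1.09 ± 0.16 without mouse 1 (adjusted p = 0.000191). In every other fit without 1 library the adjusted p was above the threshold, up to 0.146. Anti-SIRPa against control arthritis gave -0.95 ± 0.26 (adjusted p = 0.059), and -1.17 ± 0.16 without mouse 1 (adjusted p = 0.000193). Igfbp7 shares 85 exon bases with Polr2b on the opposite strand, so some counts are uncertain if the counting ignored strand.

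Igfbp5, the most abundant member, binds matrix as well as IGFs. It reached 2091, 2305, 2796 and 2045 CPM in anti-SIRPa joints, 2051, 3168, 3428 and 3728 CPM in control arthritis joints, and 2006, 2076, 2174 and 1793 CPM in naive joints. Mice 2, 3 and 4 of control arthritis were the highest of all 12. The difference of control arthritis from naive was 0.62 ± 0.20 (adjusted p = 0.0611), and 0.76 ± 0.15 without mouse 1 (adjusted p = 0.0022). Anti-SIRPa against control arthritis gave -0.42 ± 0.20 (adjusted p = 0.208), and -0.57 ± 0.15 without mouse 1 (adjusted p = 0.0166). Relative to naive, Igfbp5 stood at 0.20 ± 0.20 in anti-SIRPa joints.

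Igfbp6, which prefers IGF2 over IGF1, went the opposite way. It measured 207.1, 225.2, 154.9 and 219.8 CPM in anti-SIRPa joints, 152.5, 110.1, 96.3 and 110.4 CPM in control arthritis joints, and 245.2, 217.8, 233.5 and 198.0 CPM in naive joints. Every control arthritis mouse, mouse 1 included, was below every mouse of the other groups, although anti-SIRPa mouse 3 exceeded control arthritis mouse 1 by little. Igfbp6 fell by 0.93 ± 0.16 on the log2 scale in control arthritis relative to naive (adjusted p = 0.00807). This call was kept in all 12 fits that left out 1 library, with log2 fold changes from -1.09 to -0.85 and adjusted p up to 0.0316. It was lost without control arthritis mice 2 and 4 together, at -0.86 and adjusted p = 0.123.

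With anti-SIRPa, Igfbp6 was 0.78 ± 0.16 higher than in control arthritis (adjusted p = 0.0294), the only member past the threshold in that comparison with all 12 mice. It was kept in 7 of 12 fits without 1 library. The call was lost without control arthritis mouse 2, 3 or 4 or anti-SIRPa mouse 1 or 2, with adjusted p between 0.0761 and 0.099. Without control arthritis mouse 1 the difference was 0.94 ± 0.14 (adjusted p = 0.000378). Between anti-SIRPa and naive joints the difference was within its error, at -0.15 ± 0.16 (95% interval -0.49 to 0.19).

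**Figure D2:**
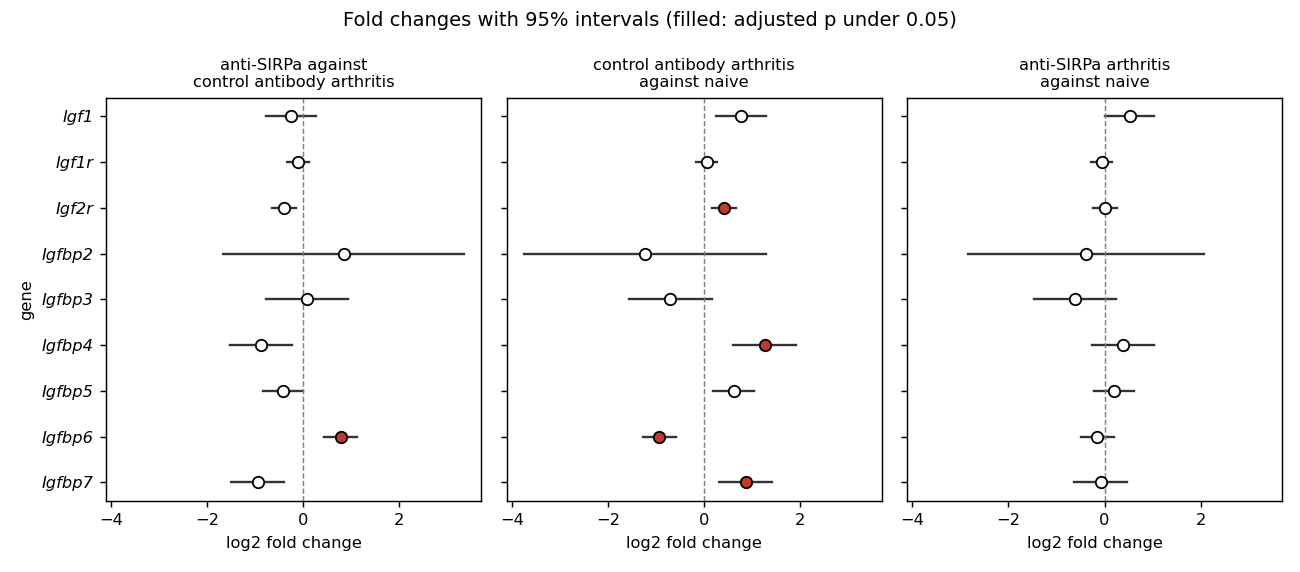
Log2 fold changes of the 9 members with 95% intervals in the 3 comparisons, from the edgeR fit to all 12 libraries; filled circles have an adjusted p under 0.05. Igfbp6 lies at 0.78 for anti-SIRPa against control arthritis and at -0.93 for control arthritis against naive, and no circle is filled for anti-SIRPa against naive.

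The proportions of the binding protein transcripts differed in their group means. These shares were not tested. Of the summed RPKM of the 6 Igfbp members, Igfbp6 made up 24.3 ± 4.75% in anti-SIRPa joints, 12.1 ± 6.36% in control arthritis joints and 28.0 ± 0.997% in naive joints (SD, n = 4 each). The control arthritis share was 21.6% in mouse 1 and 7.92% to 9.55% in mice 2, 3 and 4. Igfbp4 made up 8.62 ± 1.31% in anti-SIRPa joints, 12.1 ± 3.45% in control arthritis joints and 6.99 ± 0.733% in naive joints. For Igfbp7 the share was 14.1 ± 1.58% in anti-SIRPa joints, 20.8 ± 4.72% in control arthritis joints and 15.6 ± 1.10% in naive joints. Igfbp5 was the largest share in every mouse, with 51.0 ± 5.42% in anti-SIRPa joints, 53.9 ± 4.18% in control arthritis joints and 46.7 ± 2.32% in naive joints. The ratio of Igfbp5 to Igfbp6 per length was 2.21 ± 0.761 in anti-SIRPa joints, 5.17 ± 1.86 in control arthritis joints and 1.67 ± 0.109 in naive joints. Its range was 1.72 to 3.34 in anti-SIRPa mice, 2.49 to 6.59 in control arthritis mice and 1.51 to 1.77 in naive mice. The summed Igfbp transcript was 65.2 ± 12.1 times the Igf1 level in anti-SIRPa joints, 72.4 ± 14.7 times in control arthritis joints and 89.0 ± 10.3 times in naive joints, with overlapping values.

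**Figure D3:**
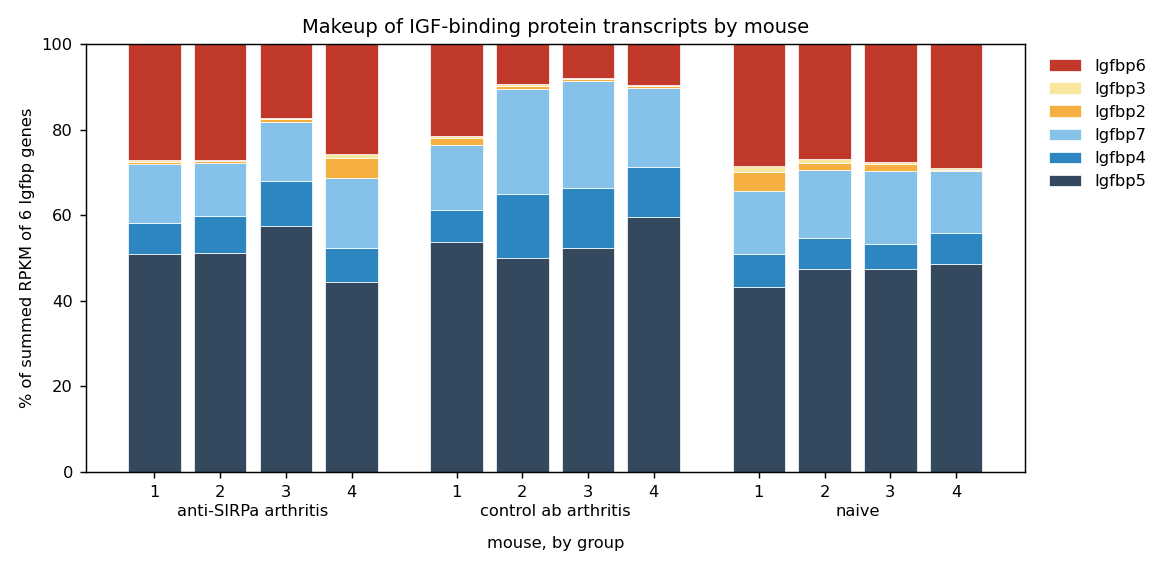
Share of each gene in the summed RPKM of Igfbp2, Igfbp3, Igfbp4, Igfbp5, Igfbp6 and Igfbp7, 1 bar per mouse. The Igfbp6 share (top, red) is 7.92% to 9.55% in control arthritis mice 2, 3 and 4, 21.6% in mouse 1, and 17.2% or more in all other mice.

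Marker lists of other cells moved with these genes, in part. Over all tested genes, 10.3% passed in control arthritis relative to naive and 3.29% with anti-SIRPa relative to control arthritis. A single call in a list, as for bone against naive, was near the first share. The summed CPM of 12 fibroblast markers was 13497 to 17743 in anti-SIRPa joints, 11358 to 36563 in control arthritis joints and 11137 to 17748 in naive joints. In control arthritis relative to naive, 3 of the 12 rose, and the median log2 fold change of the 12 was only 0.17. With anti-SIRPa relative to control arthritis 0 of the 12 passed, and the median was -0.0036, so the list as a whole hardly moved there. Control arthritis mouse 1 had the lowest fibroblast sum of its group and mice 2, 3 and 4 had 25314 CPM or more. The sum of 12 macrophage markers was 606 to 915 CPM in anti-SIRPa joints, 473 to 991 CPM in control arthritis joints and 622 to 635 CPM in naive joints, with 6 of 12 higher and 1 lower in control arthritis relative to naive. All fibroblast and macrophage markers were detected in every library. Of 18 skeletal muscle markers, 4 were lower in control arthritis than in naive joints and none was higher. Of 10 endothelial markers, 2 were lower in control arthritis than in naive joints and 2 were higher with anti-SIRPa than in control arthritis. The endothelial sum was 207 to 282 CPM in anti-SIRPa joints, 172.5 to 334.7 CPM in control arthritis joints and 225 to 278 CPM in naive joints. The sum of 8 Schwann cell markers was 520 to 715 CPM in anti-SIRPa joints, 401 to 643 CPM in control arthritis joints and 502 to 702 CPM in naive joints. None of them was called in control arthritis against naive, and 1 of 8 was higher with anti-SIRPa than in control arthritis. Like Igfbp6, this sum had its lowest mean in control arthritis. So did the sums of skeletal muscle, epidermis, adipocyte, erythroid, and smooth muscle and pericyte markers. The last averaged 877 CPM in anti-SIRPa joints, 682 CPM in control arthritis joints and 760 CPM in naive joints. Of 10 neutrophil markers, 6 were tested, and 3 of them rose in control arthritis relative to naive (median log2 fold change of the 6, 3.26), while 1 fell with anti-SIRPa relative to control arthritis. The neutrophil sum was 20.3 to 65.1 CPM in anti-SIRPa joints, 22.5 CPM in control arthritis mouse 1, 82.1 to 391 CPM in control arthritis mice 2, 3 and 4, and 15.0 to 31.8 CPM in naive joints. Mmp8, Retnlg, Ly6g and Trem1 were at 0 in some libraries. Of 8 adipocyte markers, 3 rose with anti-SIRPa relative to control arthritis and none passed in control arthritis relative to naive, with sums of 373 to 581 CPM in anti-SIRPa joints, 125 to 325 CPM in control arthritis joints and 275 to 321 CPM in naive joints. Of 12 bone markers, 11 were tested. Of these, 1 was higher in control arthritis than in naive joints, and 1 was higher with anti-SIRPa than in control arthritis. The latter call went against the median log2 fold change of the 11, which was -0.19 with anti-SIRPa relative to control arthritis. The bone sum was 219.9 to 302 CPM in anti-SIRPa joints, 179.6 CPM in control arthritis mouse 1, 421 to 533 CPM in control arthritis mice 2, 3 and 4, and 148 to 259 CPM in naive joints. Of 9 tested cartilage markers, 1 rose and 1 fell in control arthritis relative to naive. The cartilage sum was 660 to 786 CPM in anti-SIRPa joints and 498 to 690 CPM in naive joints. It was 574 CPM in control arthritis mouse 1 and 861 to 1028 CPM in control arthritis mice 2, 3 and 4. The part of these cell types in the results was not tested.

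Igfbp2 and Igfbp3 varied more within groups than between them. Igfbp2, a circulating carrier of IGFs, had 3.88, 4.64, 8.95 and 65.7 CPM in anti-SIRPa joints, 17.8, 12.5, 6.50 and 9.75 CPM in control arthritis joints, and 62.1, 22.4, 23.1 and 1.38 CPM in naive joints. Its highest values matched the epidermis marker sum of 14 genes. That sum was 16677 CPM in anti-SIRPa mouse 4 and 12612 CPM in naive mouse 1, the mice with the most Igfbp2. At the low end the match was partial. The epidermis sum was 6.31 CPM in anti-SIRPa mouse 2 and 6.82 CPM in naive mouse 4, and naive mouse 4 also had the least Igfbp2. Anti-SIRPa mouse 2 had more Igfbp2 (4.64 CPM) than anti-SIRPa mouse 1 (3.88 CPM), whose epidermis sum was 274 CPM. Igfbp3, the main carrier of IGFs in blood, had 10.6, 9.08, 8.81 and 22.6 CPM in anti-SIRPa joints, 9.92, 18.4, 11.7 and 8.59 CPM in control arthritis joints, and 32.0, 19.7, 16.4 and 10.1 CPM in naive joints. The mice highest in Igfbp3 were naive mouse 1 and anti-SIRPa mouse 4. The part of skin in these values was not tested.

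No comparison was called for Igfbp2 or Igfbp3. Control arthritis against naive gave -1.23 ± 1.12 for Igfbp2 (adjusted p = 0.511) and -0.70 ± 0.39 for Igfbp3 (adjusted p = 0.267). The 95% interval for Igfbp2 with anti-SIRPa against control arthritis was -1.66 to 3.35, so that no direction could be given. Igfbp2 and Igfbp5 lie tail to tail on chromosome 1, with 5457 bases and 0 annotated genes between them. Igfbp2 covers chr1:72824503-72852474 (+) and Igfbp5 chr1:72857932-72874884 (-) on GRCm38. Despite this, the values of Igfbp5 did not follow the epidermis sum: anti-SIRPa mice 2 and 4, at the lowest and highest sums, had 2305 and 2045 CPM of Igfbp5.

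**Figure D4:**
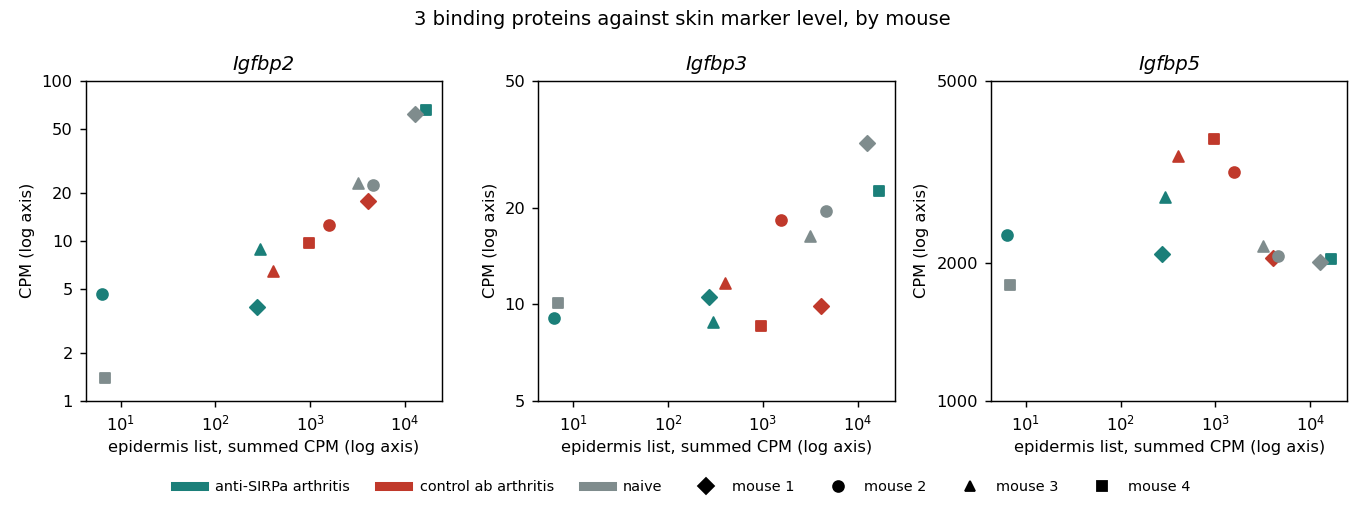
CPM of Igfbp2, Igfbp3 and Igfbp5 (y, log axis) against the summed CPM of 14 epidermis markers (x, log axis) in 12 mice, coloured by group, with the symbol giving the mouse number. Igfbp2 is 62.1 and 65.7 CPM at the 2 highest epidermis sums, while the 3 highest Igfbp5 values belong to control arthritis mice 2, 3 and 4 at intermediate sums.

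Of 28 other genes of the IGF axis, 21 were tested. In control arthritis relative to naive, 4 rose and 4 fell, where 10.3% of all genes passed, and with anti-SIRPa relative to control arthritis 1 rose and 1 fell, where 3.29% passed. None passed the test between anti-SIRPa and naive. Without control arthritis mouse 1, 6 of the 21 rose and 4 fell in control arthritis relative to naive, where 27.2% of genes passed. In the same fit 5 rose and 6 fell with anti-SIRPa relative to control arthritis, where 23% passed. The list was put together with earlier results of these data known. Its median log2 fold change was -0.05 for control arthritis against naive and -0.08 for anti-SIRPa against control arthritis, near the all-gene medians of 0.03 and -0.03.

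Among the proteases of the list that passed the threshold in control arthritis relative to naive, Adam12 and Pappa2 rose and only Htra3 fell. Adam12, a metalloprotease that cuts Igfbp3 and Igfbp5, had 5.58, 4.77, 11.5 and 5.55 CPM in anti-SIRPa joints, 6.95, 68.0, 57.9 and 32.8 CPM in control arthritis joints, and 3.59, 4.43, 3.59 and 3.53 CPM in naive joints. All serum-treated mice were above all naive mice, and control arthritis mouse 1 was again near the anti-SIRPa mice. Adam12 rose by 3.45 ± 0.60 in control arthritis relative to naive (adjusted p = 0.0106), and fell by 2.60 ± 0.57 with anti-SIRPa relative to control arthritis (adjusted p = 0.0403). The first call was kept in all 12 fits without 1 library, and the second in 1 of 12, that without control arthritis mouse 1 (-2.94 ± 0.31, adjusted p = 8.98e-05), with adjusted p up to 0.124 in the others.

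Pappa2, a pappalysin that cuts Igfbp3 and Igfbp5, had 2.64 to 7.30 CPM in anti-SIRPa joints, 3.80, 26.1, 21.8 and 18.1 CPM in control arthritis joints and 3.07 to 6.26 CPM in naive joints. It rose by 1.91 ± 0.49 in control arthritis relative to naive (adjusted p = 0.0328), a call lost without any 1 naive mouse or control arthritis mouse 2, 3 or 4 (adjusted p up to 0.0954). Htra3, a serine protease of the HtrA family, was 101 to 106 CPM in anti-SIRPa joints, 80.2 to 90.4 CPM in control arthritis joints and 107 to 118 CPM in naive joints. It fell by 0.40 ± 0.09 in control arthritis relative to naive (adjusted p = 0.0169), a call lost without naive mouse 4 or control arthritis mouse 3 or 4 (adjusted p up to 0.0541), and mouse 1 sat with its group at 83.7 CPM. Anti-SIRPa joints had 0.30 ± 0.09 more Htra3 than control arthritis joints (adjusted p = 0.0681), or 0.31 ± 0.09 without mouse 1 (adjusted p = 0.0269), and their ranges did not overlap. Pappa, the main Igfbp4 protease, stood at 0.94 ± 0.51 in control arthritis relative to naive (adjusted p = 0.253).

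Among the signalling genes, the receptor substrate Irs1 set control arthritis apart, while anti-SIRPa and naive values overlapped. It measured 161.2, 152.2, 145.3 and 119.4 CPM in anti-SIRPa joints, 118.1, 84.1, 72.9 and 85.6 CPM in control arthritis joints, and 165.9, 147.4, 170.3 and 216.2 CPM in naive joints. All control arthritis mice were below all others, though mouse 1 at 118.1 CPM was only just below anti-SIRPa mouse 4 at 119.4 CPM. Irs1 fell by 0.96 ± 0.16 in control arthritis relative to naive (adjusted p = 0.00808), a call kept in all 12 fits without 1 library. It was 0.68 ± 0.16 higher with anti-SIRPa than in control arthritis (adjusted p = 0.0423), kept without naive mouse 4, control arthritis mouse 1 or anti-SIRPa mouse 4 and lost without any of the other 9 (adjusted p up to 0.129). The related Irs2 showed 0.08 ± 0.16 in control arthritis relative to naive (adjusted p = 0.765).

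Grb10, an adaptor that restrains IGF1 and insulin receptor signalling, had 60.9 to 77.1 CPM in anti-SIRPa joints, 61.4, 128.5, 143.2 and 112.2 CPM in control arthritis joints and 56.4 to 69.3 CPM in naive joints. It rose by 0.82 ± 0.20 in control arthritis relative to naive (adjusted p = 0.0247). Its relative Grb14, an adaptor that inhibits the insulin receptor, moved the other way, with 44.7 to 71.0 CPM in anti-SIRPa joints, 42.3, 11.4, 18.4 and 20.5 CPM in control arthritis joints and 44.2 to 59.4 CPM in naive joints. Grb14 fell by 1.15 ± 0.31 in control arthritis relative to naive (adjusted p = 0.0408). Stat5a, a transcription factor of cytokine and growth hormone signalling, rose by 0.60 ± 0.16 (adjusted p = 0.0333). In fits without 1 library, the calls of Grb10, Grb14 and Stat5a were kept in 6, 3 and 6 of 12, with adjusted p up to 0.0844 for Grb10, 0.122 for Grb14 and 0.105 for Stat5a; each was kept without control arthritis mouse 1. With anti-SIRPa relative to control arthritis none of the 3 passed with all 12 mice. Without mouse 1, Grb10 fell by 0.90 ± 0.12 (adjusted p = 0.000181) and Stat5a by 0.59 ± 0.17 (adjusted p = 0.0205), while Grb14 rose by 1.73 ± 0.20 (adjusted p = 0.000109).

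Igf2, the other ligand, had 42.4, 48.2, 49.9 and 39.2 CPM in anti-SIRPa joints, 34.6, 20.5, 21.8 and 36.3 CPM in control arthritis joints, and 40.6, 41.1, 41.1 and 50.5 CPM in naive joints. Every control arthritis mouse was below every other mouse. Igf2 fell by 0.61 ± 0.18 in control arthritis relative to naive (adjusted p = 0.046), a call kept in 3 of 12 fits without 1 library, with adjusted p up to 0.132. Igfbp1 had 5 counts in control arthritis mouse 2 and 0 in the other libraries. The insulin receptor gene Insr stood at -0.07 ± 0.14 and the growth hormone receptor gene Ghr at -0.13 ± 0.22 in control arthritis relative to naive, neither past the threshold.

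**Figure D5:**
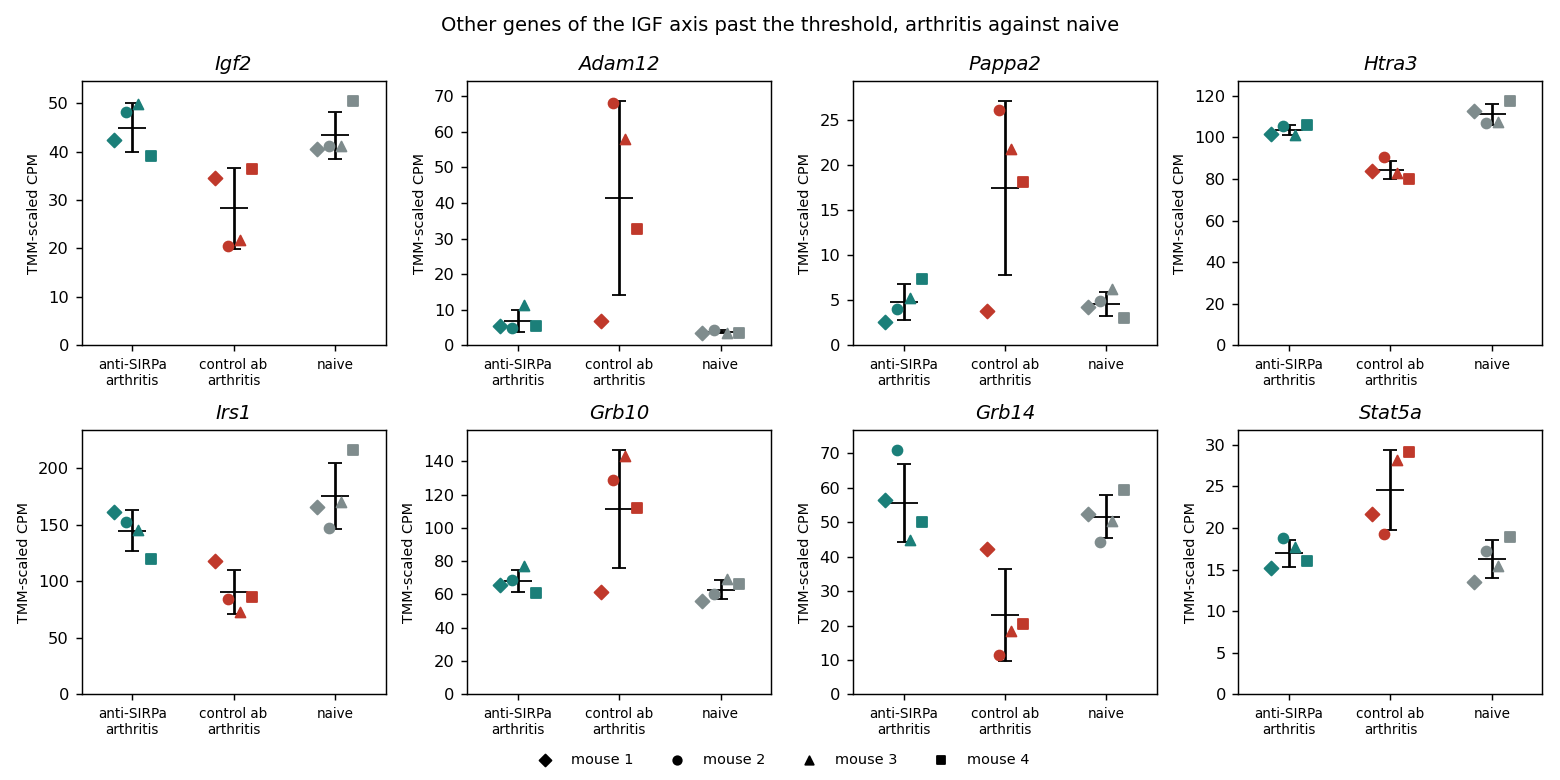
TMM-scaled CPM per mouse of the 8 other IGF axis genes past the threshold for control arthritis against naive, by group; points are mice, with the mean and ± 1 SD (n = 4). Adam12, Pappa2 and Grb10 are high in control arthritis mice 2, 3 and 4 and low in mouse 1, while Htra3, Irs1, Grb14 and Igf2 are lower in all 4 control arthritis mice than in every other mouse.

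Among 12073 genes with a mean log2 CPM of at least 1, those whose log2 CPM followed Igfbp6 most closely over the 12 libraries were Ccn3 (r = 0.97), Ablim1 (0.97) and Sema3e (0.97). For Igfbp4 they were Ephb2 (0.98), Tnc (0.97) and Gas6 (0.97), for Igfbp7 Ttyh3 (0.985), Sec22b (0.98) and Plk4 (0.98), and for Igfbp5 Svep1 (0.97), Ggt5 (0.97) and Tmem98 (0.96). Tuba1a (0.96), Ikbip (0.96) and Dse (0.95) were nearest to Igf1, and Dnm3os (0.97), Runx1 (0.97) and Sbno2 (0.97) to Igf2r. These are Pearson correlations across 12 libraries that share the group differences and the position of control arthritis mouse 1, and they are descriptions. Among the members themselves, Igfbp4 and Igfbp5 (r = 0.93) and Igfbp4 and Igfbp7 (0.91) ran together, and Igfbp6 ran against Igf2r (-0.92) and Igfbp5 (-0.87).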

How the data were processed

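RNA of 12 paw joints (3 groups of 4 mice) was sequenced with a strand-specific library kit, per the labels. The authors deposited whole-number read counts per gene with no normalization, and the submitters' processing notes name GRCm38; no source used here gives the aligner, counter or its strand setting. Totals were 6893969 to 17597920 counts per library, and the 4 mice per group limit the precision. From the deposited counts, edgeR 4.0.16 (R 4.3.3) filtered genes by group with filterByExpr, scaled by TMM and fitted a robust quasi-likelihood model to all 12 libraries. The Benjamini-Hochberg threshold was 0.05, and the common biological coefficient of variation was 0.334. Symbols and exon lengths came from GENCODE M21, which gave symbols for 52403 identifiers; the rest held 0.024% of counts. The fit was tested on simulated counts with known changes. It called 40% to 44% of 2-fold changes and 76% to 82% of 4-fold changes, so a gene not called can still differ. Of 128 to 132 calls in a comparison, 7 to 10 were false. No simulated library was set apart from its group as control arthritis mouse 1 was, so these rates may not hold for the real data. Alternatives included DESeq2 1.42.0 and limma-voom (limma 3.58.1), other scalings and filters, and leaving out each library. The 9 members and all lists were chosen with earlier results of these data known. Every member was reported, with those of the other IGF axis genes past the threshold plus up to 6 others, and 3 most alike genes for each member the results turn on.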

Additional observations from a re-analysis of the deposited data

Results flagged for a closer look

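Of 90 sets of 4 mice (30 genes in 3 groups), 7 had a mouse whose gap to the nearest other mouse, divided by the range of the group, exceeded Dixon's 95% critical value; chance gives about 1 in 20, or 4.5 sets. Igf2r in control arthritis mouse 1 was 195.3 CPM where the other mice had 253.1 to 253.7 CPM (0.9887). Igfbp2 in anti-SIRPa mouse 4 was 65.7 CPM against 3.88 to 8.95 CPM in the others (0.9179), and Igfbp3 in the same mouse was 22.6 CPM against 8.81 to 10.6 CPM (0.8716). Igf2 in naive mouse 4 was 50.5 CPM against 40.6 to 41.1 CPM (0.9509). Socs2, a feedback inhibitor of growth hormone signalling, was 12.8 CPM in anti-SIRPa mouse 3 against 8.58 to 8.95 CPM (0.9128). Adam12 was 11.5 CPM in anti-SIRPa mouse 3 against 4.77 to 5.58 CPM (0.8783), and 4.43 CPM in naive mouse 2 against 3.53 to 3.59 CPM (0.9268).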

How the results depend on the processing

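Each count of members and genes past the threshold was recomputed under 24 settings. In the 12 fits without 1 library, members called numbered 0 to 6 for anti-SIRPa against control arthritis and 1 to 6 for control arthritis against naive, and genes called numbered 0 to 3976 and 412 to 4694. For anti-SIRPa against control arthritis, where 1 member and 548 genes were called, DESeq2 called 4 members and 1892 genes, limma-voom called 345 genes, the replicate block 0 members and 78 genes, and the fits with only the 2 groups, without control arthritis mice 2 and 4, or without naive mouse 4 and anti-SIRPa mouse 2 called 0 members and 0 genes each. For control arthritis against naive, where 4 members and 1721 genes were called, the counts were 6 members and 2905 genes (DESeq2, which also called Igf1 and Igfbp5 at adjusted p = 0.0191 and 0.00726), 2 members (no filter), 1 member and 735 genes (replicate block), 1 member and 435 genes (only the 2 groups), 0 members and 1 gene (without control arthritis mice 2 and 4), and 1 member and 166 genes (without naive mouse 4 and anti-SIRPa mouse 2). No count of all genes is given here for that comparison with no filter, so its 2 members stand without a background. Anti-SIRPa against naive gave 4 genes with no filter and 20 with DESeq2, where 0 were called. The cause of these moves was not tested. Replicate numbers were not treated as a pairing in the main fit. The correlation of deviations from the group mean ran from -0.8003 to 0.2071 between same-numbered mice and reached 0.7664 between others. With deviations centred in groups of 4, these values cannot show whether the numbers mark a shared batch. Directions turned for values near 0 and for Igfbp2 and Igfbp3. With limma-voom, Igfbp2 for anti-SIRPa against control arthritis was -0.0298 (log2). Over the 12 fits without 1 library, the log2 fold change for anti-SIRPa against control arthritis ran from -0.96 to 1.197 for Igfbp2 and from -0.30 to 0.344 for Igfbp3, that for anti-SIRPa against naive from -2.232 to 0.415 for Igfbp2 and from -0.00847 to 0.0641 for Igf2r, and that for control arthritis against naive from -0.00605 to 0.114 for Igf1r. Scaling choices moved the all-gene median by at most 0.0258. Depth limits Igfbp2 in naive mouse 4, which rests on 18 counts.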
